A study of Sus scrofa with 15 samples.

Results

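The genes described here are 47 pig genes whose products build centrosomes or start and hold microtubules, taken as a list of names and grouped by the complex they belong to. A gene identifier was found for 41 of the 47 names among the 22516 genes of the gene-level count table. HAUS3, TACC3, CEP72, PCNT, OFD1 and CEP70 had no identifier paired with their names and were not analysed here. The groups held 7 genes of the γ-tubulin ring complex, 7 of augmin, 11 of centriole assembly, 5 of centriole ends, appendages and linker, 5 of the pericentriolar material and satellites, and 6 of the spindle and midbody. Of the 41 genes, 40 had enough counts to be tested, and CEP250, a linker protein between centrioles, did not, with 0 to 12.1 counts in each library of the fit.

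RNAseq libraries were made from pig (Sus scrofa) oocytes, each from 15 oocytes, with 5 libraries of every group. GV (germinal vesicle) oocytes, which still hold their nucleus, were taken from fresh follicles without culture. MII (metaphase II) oocytes were cultured for 44 h by the labels and had extruded a polar body, and ‘damaged’ oocytes went through the same culture but showed no polar body. The cDNA was made by the SMART-Seq HT method, which primes on poly(A) tails, and total estimated counts ran from 6.40 to 23.6 M per library. GV replicate 3 had the lowest total and was left out, so the comparisons rest on 4 GV, 5 MII and 5 ‘damaged’ libraries. What limits the groups as a model is that oocytes were pooled from abattoir ovaries, that ‘damaged’ is defined only by the missing polar body, and that libraries of a group came from 5 independent collections by the methods, without a link between a replicate number and a collection or an animal.

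A centrosome is a pair of centrioles inside a matrix of protein, the pericentriolar material, from which a somatic cell grows its microtubules. The γ-tubulin ring complex is the template on which a microtubule starts, and augmin brings that complex to existing microtubules so that new ones branch off. Mammalian oocytes lose their centrioles before they are fully grown, and the meiotic spindle is assembled around acentriolar organising centres and chromosomes, while the messages for centrosomal proteins are stored in the cytoplasm.

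Names and totals in the gene-level table went against each other for 7 of its 15 columns, so only the other 8 were used, to find which transcripts belong to each gene. From these transcripts the counts of every library were summed anew, and they carry the labels of the transcript files. The nearest library by correlation was of the same stage, that is GV or matured, for 15 of 15 libraries, but for only 3 of the 10 matured libraries was it of the same label among MII and ‘damaged’. Each comparison was therefore repeated with the 2 GV, 3 MII and 3 ‘damaged’ libraries whose labels agreed. The oocyte identity was checked with 12 markers, of which 11 were measured, and their summed level was 15630 to 18434 TPM (a length-corrected level that sums to the same total in each library) in GV, 10740.0 to 13040 in MII and 10575 to 12865 in ‘damaged’ libraries. Markers of cumulus and granulosa cells, 7 of 12 measured, summed to 1.47 to 5.51 TPM in any library, with CYP11A1 under 1 count in all GV libraries, AMH in all MII libraries and TNFAIP6 in all ‘damaged’ libraries. The 2 blood markers summed to at most 1.05 TPM.

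A change between stages depends on how libraries are scaled. On library sizes alone, the middle gene of the 13219 tested had a log2 fold change of -1.08 for MII against GV and of -1.01 for ‘damaged’ against GV. With TMM factors, which assume that most genes keep their level, the medians were -0.17 and -0.14, so the medians moved up by 0.91 and 0.87, and the values below move up by about as much. A gene is said to rise or fall here only where limma gave a false discovery rate (FDR) under 0.01 under both scalings, and is called differentially expressed (a DEG) only where the log2 fold change also passed 2. The place of a gene in the ranking of all genes, given as a percentile, hardly moves with the scaling. Values are relative to the total of each library, so the amount of RNA per oocyte was not measured, and with poly(A) priming a lower amount of a message and a shorter tail cannot be told apart.

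Between GV and MII some centrosome and microtubule genes rose and others fell. Under both scalings 13 of the 40 genes rose: TUBGCP5, NEDD1, SASS6, STIL, CEP57, CEP135, CETN2, CETN3, CEP78, PCM1, CEP290, CKAP5 and PRC1. Under both 11 fell: TUBGCP2, TUBGCP3, TUBGCP6, HAUS1, HAUS2, HAUS5, HAUS7, CDK5RAP2, CEP131, NUMA1 and CLASP1. A further 11 were higher with TMM factors only, and 4 (TUBGCP4, CENPJ, CEP63 and CEP55) were lower on library sizes only. In ‘damaged’ against GV, which shares the GV libraries, 13 rose and 11 fell, and the 11 there held TUBGCP4 in place of NUMA1. The share of all genes that passed under both scalings was not counted. For MII it can be at most 11.0% higher and 34.2% lower, the smaller shares by FDR alone under 1 scaling. For ‘damaged’ these limits were 11.2% and 33.4%. The 11 that fell are therefore not read against all genes.

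As DEGs on library sizes, 0 of 40 genes were called higher in MII, where 0.363% of all genes were, and 8 of 40 were called lower, where 29.3% of all genes were. The 8 were TUBGCP2, TUBGCP3, TUBGCP6, HAUS1, HAUS5, HAUS7, CDK5RAP2 and CEP131. With TMM factors 6 were called higher (NEDD1, CEP57, CETN2, CETN3, CEP290 and CKAP5), against 4.51% of all genes, and 2 lower (HAUS7 and CEP131), against 17.0%. These last 2 passed the filter on low counts only through GV, since 10 counts were reached in 0 (HAUS7) and 1 (CEP131) of the 10 matured libraries, so their calls are a description and are not read against the share of all genes. For ‘damaged’ against GV the counts on library sizes were 0 higher, against 0.340%, and 8 lower, against 27.7%, and with TMM factors 4 higher, against 4.09%, and 2 lower, against 16.3%. By FDR alone 13 of the 40 were higher and 15 lower in MII on library sizes, against 11.0% and 57.5% of all genes, and TMM factors gave 24 and 11 of the 40, against 28.2% and 34.2%. For ‘damaged’ the shares of all genes were 11.2% and 55.9%, beside 13 and 15 of the 40, and TMM factors gave 28.0% and 33.4%, beside 25 and 11 of the 40.

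For MII against GV on library sizes the 40 genes had a median change of 0.05 (log2), beside -1.08 for all genes, and 27 of the 40 lay above the median gene. On library sizes, all MII libraries lay below all GV libraries for 14 of the 40, against 54.6% of all genes, and above them for 13, against 10.7%. For ‘damaged’ libraries these were 13 of the 40, against 52.0%, and 14, against 10.9%. With TMM factors, 9 of the 40 lay below in MII, against 32.9%, and 24 above, against 27.0%, and for ‘damaged’ 7 lay below, against 31.8%, and 25 above, against 26.6%. Each of these counts below GV holds HAUS7 and CEP131, which passed the filter on low counts only through GV. The counts below GV are therefore a description and are not read against the shares of all genes. Across the 40 genes the log2 fold change went with the mean TPM over the 14 libraries (Spearman's rho of 0.69, and 0.35 across all genes tested). This is a description across genes that share libraries. The GV and the MII values enter both measures, so a gene high in MII is raised in both, and no link is read from rho.

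**Figure D1:**
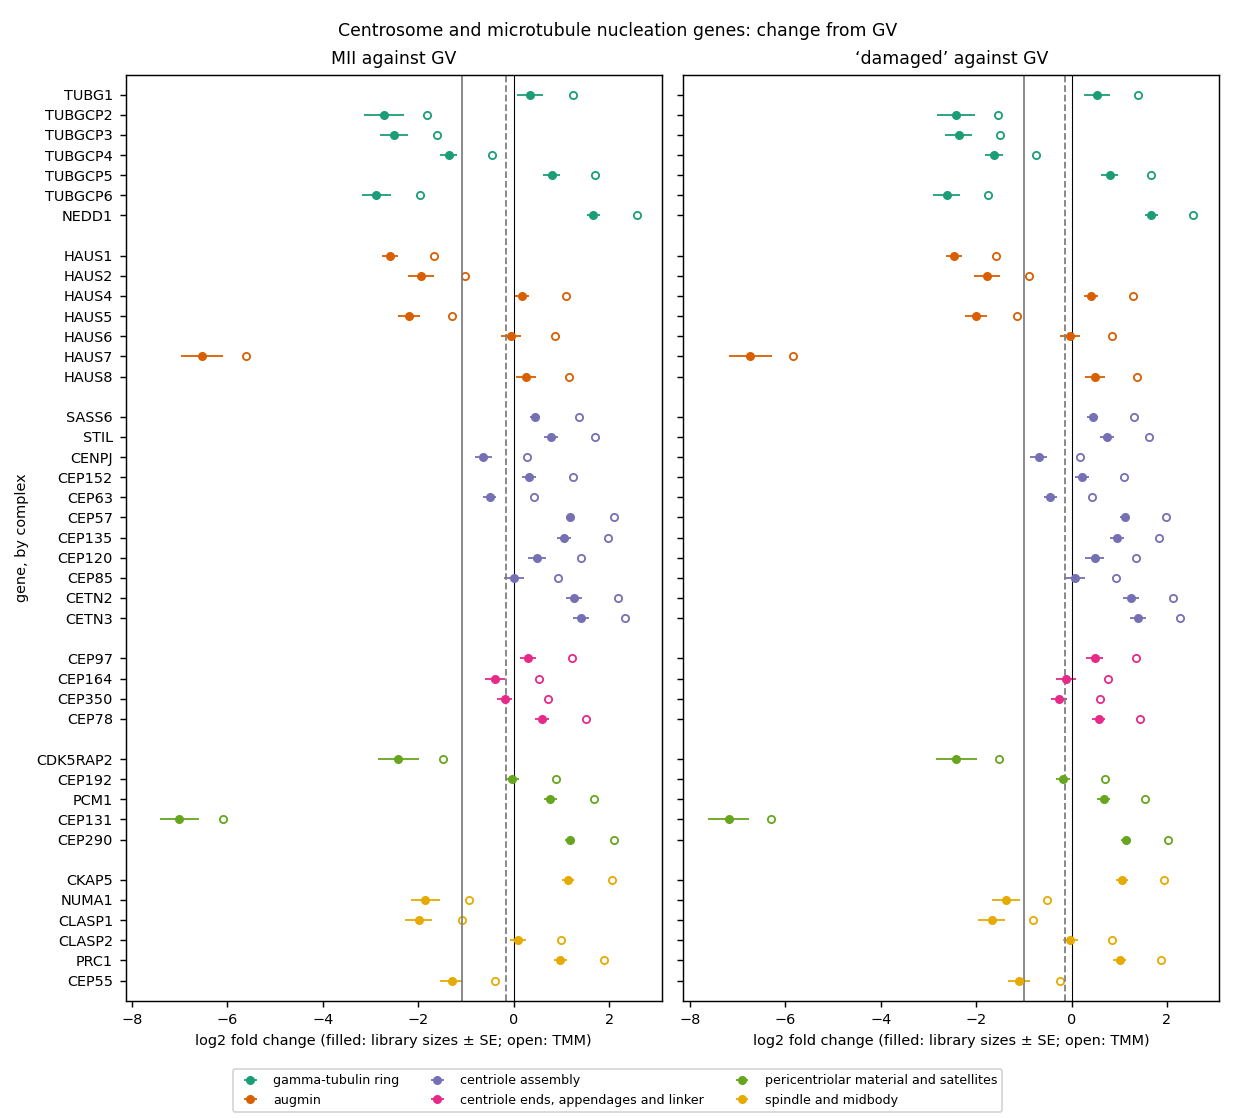
Change of the 40 tested genes from GV in MII (left) and ‘damaged’ (right) oocytes, as log2 fold change, with filled points for library sizes with their SE and open points for TMM factors, coloured by complex. The grey lines mark the median of all genes, -1.08 (solid) and -0.17 (dashed) in MII. All 11 centriole assembly genes lie to the right of the solid line, while HAUS7 and CEP131 lie far to the left in both panels.

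The γ-tubulin ring complex did not move as 1 unit. Its adaptor NEDD1, which targets the ring to spindles and centrosomes, rose, as did the ring subunit TUBGCP5, whereas TUBGCP2, TUBGCP3 and TUBGCP6 fell. NEDD1 (ENSSSCG00000000890, chromosome 5, 86693802 to 86737259 in the RefSeq annotation of Sscrofa11.1) counted 177, 113, 141 and 113 CPM (counts scaled by the library total) in the GV libraries, 388, 399, 462, 456 and 429.7 CPM in MII and 487, 409, 461, 366 and 418 CPM in ‘damaged’ libraries. No matured library came near a GV library. Its log2 fold change in MII was 1.67 with an SE of 0.14 and an FDR of 2.81e-09, the percentile 98.9 of all genes, and 2.59 with TMM factors.

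TUBG1, the γ-tubulin subunit itself, was measured at 8.63, 14.2, 13.8 and 23.4 CPM in GV, 14.1, 16.2, 15.8, 17.6 and 26.9 CPM in MII and 14.7, 14.8, 26.7, 21.9 and 26.6 CPM in ‘damaged’ libraries. On library sizes the groups overlapped, with a log2 fold change of 0.34 (SE 0.28, FDR 0.27) in MII. With TMM factors it was 1.24 (FDR 0.000143), and all matured libraries lay above the GV libraries. TUBG2 is a near copy of this gene, and reads shared by both could have been split between them. TUBG2 was estimated at 37.4 TPM in GV, 30.6 in MII and 33.7 in ‘damaged’ libraries, beside 17.4, 18.9 and 22.2 TPM for TUBG1. The log2 fold change of TUBG2 in MII was -0.16 (FDR 0.61) on library sizes and 0.75 (FDR 0.012) with TMM factors. TUBGCP6, a large subunit that is part of the ring, had 3.92, 5.86, 5.16 and 6.98 CPM in GV, 1.22, 0.36, 0.72, 0.68 and 0.85 CPM in MII and 0.95, 0.73, 1.09, 0.69 and 0.83 CPM in ‘damaged’ libraries. Every matured library was lower than every GV library, with a log2 fold change of -2.88 (SE 0.30, FDR 7.31e-08) in MII, but the MII values rest on 5.97 to 16.3 counts each.

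TUBGCP2 and TUBGCP3, core subunits that hold γ-tubulin, went the same way, from 8.32 ± 3.97 to 1.31 ± 0.71 CPM (SD, n = 4 and n = 5) and from 13.0 ± 4.05 to 2.37 ± 1.06 CPM. Their log2 fold changes were -2.72 and -2.51. TUBGCP4 had -1.36 on library sizes and -0.45 with TMM factors. TUBGCP5 rose by a log2 fold change of 0.80 (FDR 0.00052), from 49.5 ± 4.43 to 87.5 ± 21.4 CPM. Of the 7 genes, 3 were called lower and 0 higher on library sizes, against 29.3% and 0.363% of all genes, and the median of -1.36 lay near that of all genes.

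In augmin no gene rose under both scalings. HAUS1, HAUS2, HAUS5 and HAUS7 fell, while HAUS4, HAUS6 and HAUS8 had log2 fold changes of 0.17, -0.05 and 0.25 on library sizes and passed the FDR, as higher, only with TMM factors. HAUS7 (chromosome X, 124234735 to 124258133) counted 17.9, 18.5, 18.0 and 21.9 CPM in the GV libraries and 0.15, 0.18, 0.13, 0.17 and 0.26 CPM in MII, while ‘damaged’ libraries had 0.50, 0, 0.15, 0.16 and 0.31 CPM. The matured libraries held almost no reads of this gene, 1.97 to 4.92 counts each in MII and 0 to 7.91 in ‘damaged’, so the fitted log2 fold change of -6.53 rests on few counts and, as for CEP131 below, is a description of a gene that passed the filter only through GV.

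HAUS4 was the most abundant augmin message over all libraries, with 465, 376, 413 and 465 CPM in GV, 436, 433, 459, 490.3 and 613 CPM in MII and 619.7, 461, 761, 495 and 556 CPM in ‘damaged’ libraries. On library sizes its groups overlapped, and its log2 fold change in MII was 0.17 (FDR 0.29). With TMM factors it was 1.09 (FDR 4.9e-06), and all matured libraries lay above the GV libraries. HAUS8, the subunit that binds microtubules, had 10.3, 9.40, 8.12 and 17.0 CPM in GV, 10.1, 12.9, 13.0, 12.3 and 16.5 CPM in MII and 15.4, 12.8, 14.7, 15.3 and 18.8 CPM in ‘damaged’ libraries. On library sizes its groups overlapped, with a log2 fold change of 0.25 (FDR 0.29). With TMM factors all its matured libraries lay above the GV libraries. HAUS1, by contrast, dropped from 474 ± 134 CPM in GV to 78.0 ± 15.1 CPM in MII and 83.4 ± 2.99 CPM in ‘damaged’ libraries, a log2 fold change of -2.59 (SE 0.17, FDR 1.43e-10) in MII.

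Shares within a library do not depend on the scaling between libraries. HAUS1 made up 58.8 ± 6.91% of the summed TPM of the 7 augmin genes in GV, 19.2 ± 3.15% in MII and 17.9 ± 2.88% in ‘damaged’ libraries, and HAUS4 made up 35.1 ± 6.17%, 76.1 ± 3.48% and 77.4 ± 3.08%. The ratio of HAUS1 to HAUS4 in TPM, a pair picked after its values were seen, was 1.11 to 2.18 in GV, 0.21 to 0.35 in MII and 0.16 to 0.28 in ‘damaged’ libraries. NEDD1 made up 52.9 ± 9.39% of the γ-tubulin ring sum in GV, 77.3 ± 1.83% in MII and 76.6 ± 4.24% in ‘damaged’ libraries. Unlike these shares and ratios, a summed level compared between libraries does depend on the scaling, and TMM factors were not applied to it. The summed level of the augmin genes was 1381 ± 179 TPM in GV and 649 ± 89.4 TPM in MII, and that of the ring genes 140.1 ± 8.20 and 277 ± 31.7 TPM. Within the ring sum, NEDD1 alone went from 73.9 ± 12.9 TPM in GV to 213 ± 20.6 TPM in MII.

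**Figure D2:**
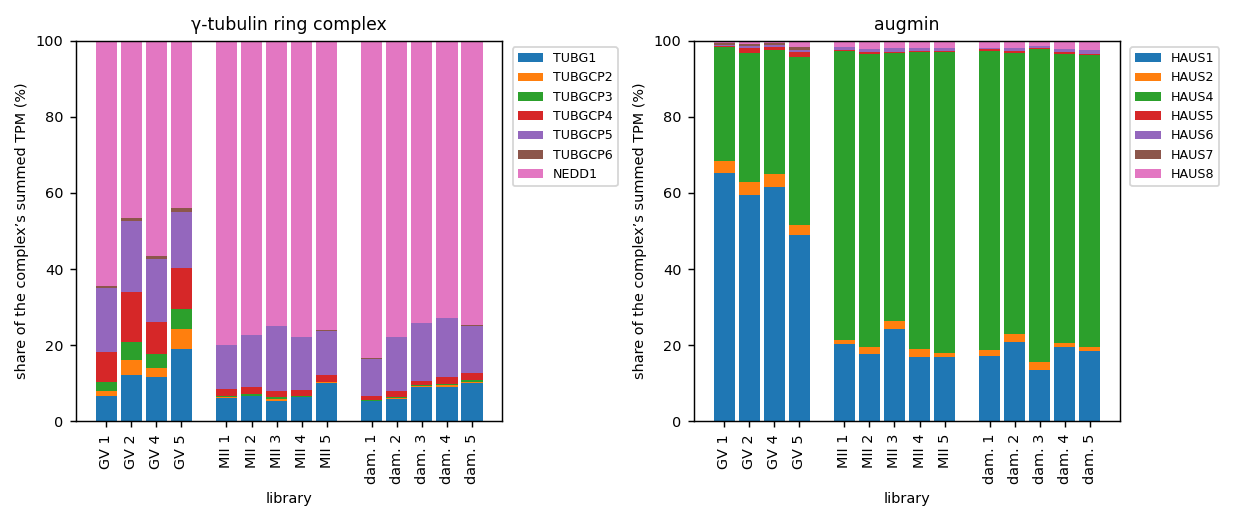
Share of each gene in the summed TPM of the γ-tubulin ring (left) and augmin (right) genes, in percent, for each library of the fit. HAUS1 takes 49.0 to 65.1% of the augmin sum in GV libraries and 16.9 to 24.3% in MII libraries, and the NEDD1 share is larger in every matured library than in any GV library.

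No gene of centriole assembly fell under both scalings. SASS6, which forms the cartwheel of a new centriole, STIL, which works with it, CEP57, CEP135, and the centrins CETN2 and CETN3, calcium-binding proteins of the centriole, rose, and all 11 lay above the median gene. CETN2 (chromosome X, 123902240 to 123906046) was the most abundant, at 858, 558, 599 and 399 CPM in GV, 1392, 1405, 1288, 1292 and 1648 CPM in MII and 1719, 1329, 1431, 1351 and 1149 CPM in ‘damaged’ libraries. Every matured library lay above every GV library, with a log2 fold change of 1.27 (SE 0.16, FDR 1.22e-06) in MII and 2.18 with TMM factors. In length-corrected levels it went from 755 ± 199.6 TPM to 1619 ± 155 TPM.

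CETN3 counted 169, 109, 142 and 85.4 CPM in GV, 328, 321, 355, 313 and 322 CPM in MII and 370.1, 334, 365, 292 and 256 CPM in ‘damaged’ libraries. The groups did not overlap, and the log2 fold change of 1.42 (SE 0.16, FDR 2.93e-07) placed it at percentile 98.0. The CETN2 to CETN3 ratio in TPM was 2.89 to 3.51 in GV and 2.49 to 3.51 in MII libraries, overlapping ranges. CENPJ, which sets centriole length, was the lowest of the group, with 83.9, 120.4, 120.4 and 169 CPM in GV, 83.2, 62.9, 87.6, 73.4 and 80.0 CPM in MII and 67.2, 71.3, 63.7, 72.7 and 103 CPM in ‘damaged’ libraries. Its groups overlapped in part, and its change of -0.64 (log2, FDR 0.00352) by library size turned to 0.27 (FDR 0.10) with TMM factors.

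The other members of this group lay between these, with log2 fold changes from -0.50 for CEP63, which turned to 0.42 with TMM factors, to 1.18 for CEP57, which went from 558 ± 12.3 to 1272 ± 88.0 CPM. CEP152, a scaffold on which centriole duplication starts, had 0.32, CEP120 0.49 and CEP85 0.01, none of which passed the FDR on library sizes.

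Among the genes of centriole ends and appendages only CEP78, which sits at the centriole wall, rose under both scalings. It counted 60.3, 55.8, 54.3 and 59.8 CPM in GV, 105, 98.2, 77.0, 82.8 and 74.7 CPM in MII and 85.3, 87.2, 68.7, 96.3 and 92.3 CPM in ‘damaged’ libraries, without overlap. Its log2 fold change was 0.59 (SE 0.14, FDR 0.000981). CEP164, a protein of the distal appendages, had 88.7, 91.3, 105 and 111 CPM in GV, 72.9, 53.0, 102, 61.8 and 99.1 CPM in MII and 112, 77.5, 114, 62.4 and 101 CPM in ‘damaged’ libraries. Those ranges overlapped, and its log2 fold change in MII was -0.39 (FDR 0.09) by library size and 0.53 (FDR 0.02) with TMM factors, so the direction flips with the scaling. With TMM factors all ‘damaged’ libraries lay above the GV libraries, while MII still overlapped them. CEP97 and CEP350 had 0.30 and -0.19, the latter 0.72 with TMM factors.

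In the pericentriolar material and satellites, the satellite proteins went to opposite ends. CEP131, a satellite protein (chromosome 12, 1537900 to 1556931), was at 42.2, 55.0, 44.4 and 59.7 CPM in GV and at 0.39, 0.36, 0.46, 0.12 and 0.84 CPM in MII, with 0.44, 0.06, 0.46, 0.32 and 0.56 CPM in ‘damaged’ libraries. Its message was nearly gone in all matured libraries, which held 0.98 to 16.0 counts of it, and the fitted log2 fold change was -7.01. As this gene was tested only because it is high in GV, its fold is a description. CEP290, a protein of satellites and of the ciliary transition zone, counted 289, 281, 279 and 312 CPM in GV, 705, 594, 643, 605 and 774 CPM in MII and 576, 684, 675, 627 and 654 CPM in ‘damaged’ libraries. It rose without overlap, with a log2 fold change of 1.19 (SE 0.11, FDR 9.4e-09), and PCM1, the scaffold of satellites, rose by a log2 fold change of 0.77 (FDR 7.8e-05).

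CDK5RAP2, which activates the γ-tubulin ring complex, had 101, 59.1, 86.9 and 151 CPM in GV, 20.6, 7.35, 25.4, 11.1 and 42.1 CPM in MII and 11.7, 13.4, 9.27, 28.7 and 42.5 CPM in ‘damaged’ libraries. The highest matured library was below the lowest GV library on library sizes, though libraries of 1 group differed by several times, and the log2 fold change was -2.42 (SE 0.43, FDR 5.32e-05) in MII and -1.49 (FDR 0.0032) with TMM factors, where the groups overlapped. CEP192, which recruits γ-tubulin and kinases to the matrix, had 121, 135, 128 and 143 CPM in GV, 159, 149, 121, 129 and 98.6 CPM in MII and 133, 121, 103, 117 and 111 CPM in ‘damaged’ libraries. On library sizes its groups overlapped, with a log2 fold change of -0.03 (SE 0.14) in MII. With TMM factors it was 0.89 (FDR 2.45e-05), and all matured libraries lay above the GV libraries.

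The spindle and midbody genes were also split. CKAP5, the microtubule polymerase, counted 191, 182, 207 and 207 CPM in GV, 385, 450.3, 516, 421 and 406 CPM in MII and 362, 408, 360.0, 430.5 and 504 CPM in ‘damaged’ libraries, without overlap. Its log2 fold change was 1.14 (SE 0.12, FDR 1.25e-07). PRC1, which bundles antiparallel microtubules of the midzone, was the most abundant of this group, at 629.5, 669.6, 759 and 729.8 CPM in GV, 1098, 1322, 1633, 1409 and 1433 CPM in MII and 1261, 1325, 1877, 1215 and 1383 CPM in ‘damaged’ libraries. It rose by a log2 fold change of 0.98 (SE 0.14, FDR 2.67e-06), again without overlap.

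NUMA1, which gathers microtubule minus ends at spindle poles, had 4.93, 11.0, 10.3 and 12.9 CPM in GV, 3.16, 2.42, 4.25, 1.57 and 2.33 CPM in MII and 3.60, 3.26, 3.84, 2.73 and 4.43 CPM in ‘damaged’ libraries. Its libraries did not overlap on library sizes, but the lowest GV library, replicate 1, was close to the highest matured ones, and the log2 fold change was -1.85 (SE 0.30, FDR 1.92e-05). With TMM factors it was -0.95 (FDR 0.0031), and both matured groups overlapped GV. CLASP1, which stabilises microtubule plus ends, had 5.12, 8.97, 4.04 and 9.21 CPM in GV, 1.05, 1.48, 2.19, 1.83 and 1.52 CPM in MII and 1.78, 2.73, 1.68, 1.82 and 2.14 CPM in ‘damaged’ libraries. On library sizes all its matured libraries were below the GV libraries, with a log2 fold change of -1.99 (SE 0.29, FDR 4.99e-06) in MII. With TMM factors the ‘damaged’ libraries of CLASP1 overlapped GV. Its paralogue CLASP2 had 0.09, so the ratio of CLASP2 to CLASP1 in TPM was 3.97 to 7.65 in GV and 13.1 to 41.0 in MII libraries. CEP55 of the midbody had -1.30 on library sizes and -0.39 (FDR 0.08) with TMM factors.

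**Figure D3:**
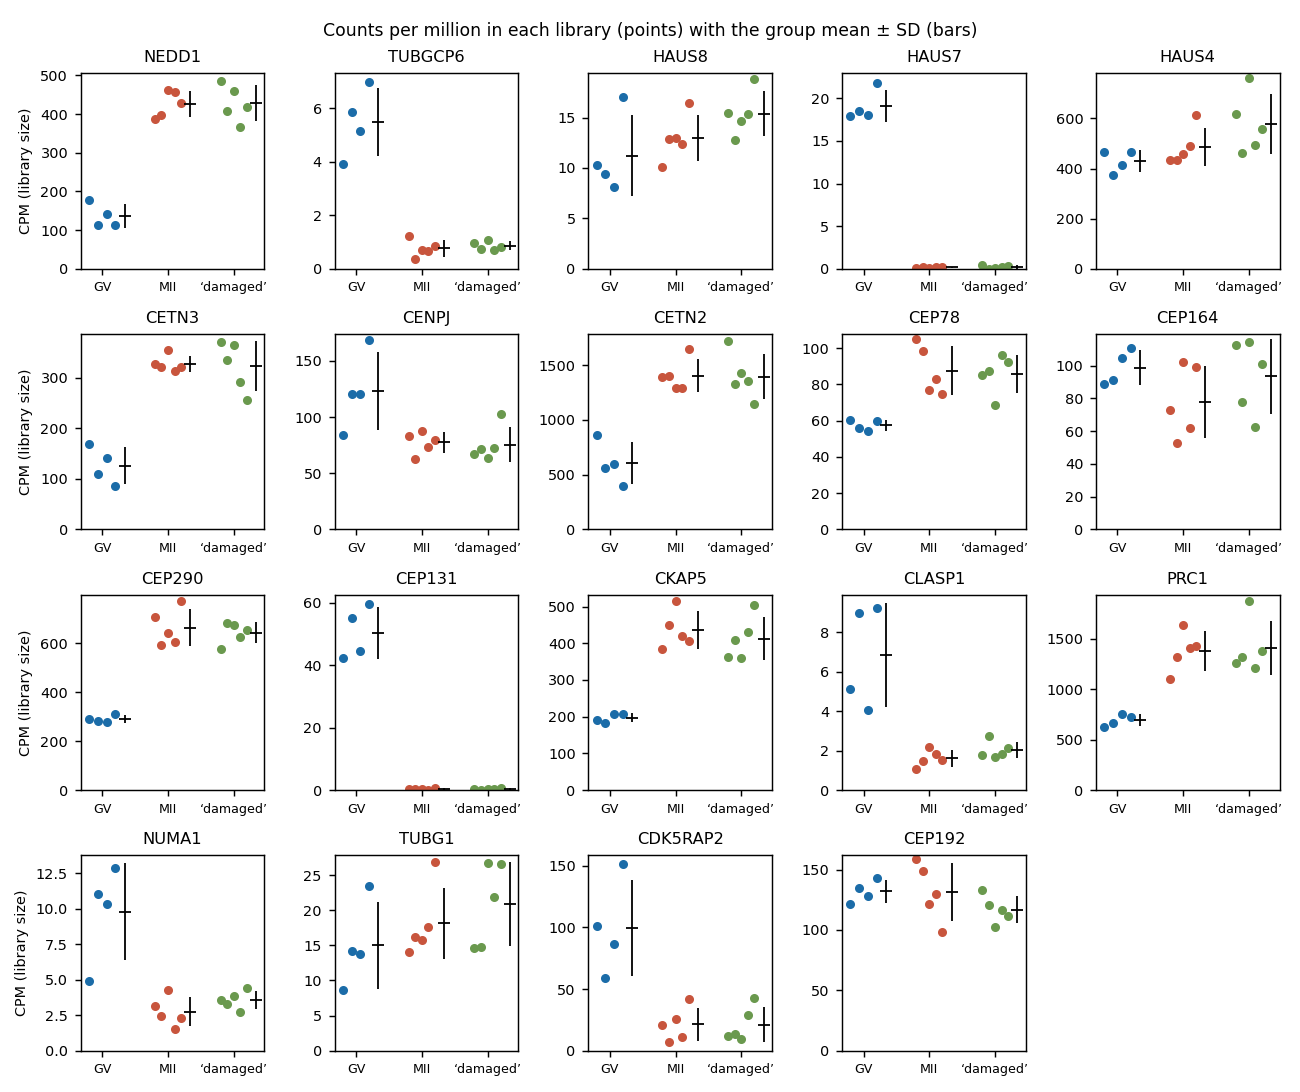
CPM on library sizes (vertical axes from 0) in each library of the GV, MII and ‘damaged’ groups for the 19 genes described by library, with group means and SD. NEDD1, CETN3 and CEP290 stand higher in all matured libraries than in GV, HAUS7 and CEP131 lie near 0 in them, and TUBG1 and CEP192 overlap.

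Set beside the MII values, the ‘damaged’ oocytes gave close numbers against the same GV libraries. NEDD1 had a log2 fold change of 1.67 in both, CETN3 1.42 in MII and 1.39 in ‘damaged’, CETN2 1.27 and 1.25, CEP290 1.19 and 1.15, and CKAP5 1.14 and 1.06. Among the genes that fell, HAUS1 had -2.59 in MII and -2.47 in ‘damaged’, CDK5RAP2 -2.42 and -2.41, and CLASP1 -1.99 and -1.68. HAUS7 had -6.53 and -6.73 and CEP131 -7.01 and -7.19, but both were near 0 in all matured libraries. The folds of HAUS7 and CEP131 therefore say little on how alike MII and ‘damaged’ oocytes were. NUMA1, with -1.85 in MII and -1.37 in ‘damaged’, passed the FDR with TMM factors in MII only, at 0.0031, while the value in ‘damaged’ was 0.074.

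MII and ‘damaged’ oocytes were compared directly, to see whether oocytes with and without a polar body differ in these messages. Which labels are right for 4 of these 10 libraries was not settled, so the comparison rests on the labels of the transcript files. For ‘damaged’ against MII 0 of 40 genes passed the FDR under either scaling in limma, as did 0% of all genes, and 0 of the 40 had an unadjusted p under 0.05. The log2 fold changes ran from -0.26 (TUBGCP4) to 0.48 (NUMA1), with a median of 0.00, and the 95% intervals of 36 of the 40 lay within 1 of 0 on the log2 scale. The smallest unadjusted p-values were 0.091 for HAUS4, with a log2 fold change of 0.24 and an interval from -0.04 to 0.52, 0.138 for NUMA1, with an interval from -0.17 to 1.12, and 0.168 for CEP164, with 0.28 and an interval from -0.13 to 0.69. For NEDD1 the interval ran from -0.25 to 0.24 and for CETN2 from -0.32 to 0.29, whereas for HAUS7 it ran from -1.45 to 1.05, so a difference of that size was not detectable for genes with few counts.

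**Figure D4:**
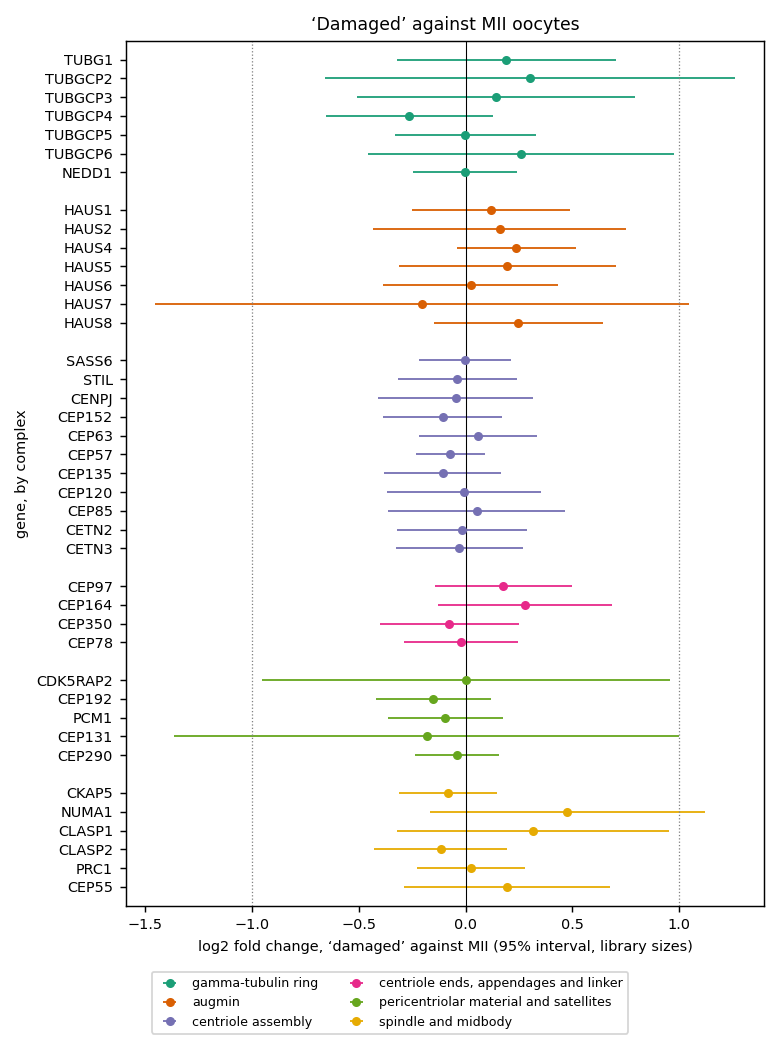
Log2 fold change of ‘damaged’ against MII oocytes on library sizes for the 40 tested genes, with 95% intervals, coloured by complex. All 40 intervals include 0, and the widest belong to HAUS7 and CEP131.

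With the libraries of agreeing labels only, the log2 fold changes of the 40 genes moved by a median of 0.14 and at most 0.40 (NUMA1) for MII against GV and by at most 0.38 (CEP131) for ‘damaged’ against GV. By FDR alone, 23 of the 28 genes that passed in MII on library sizes still did, without SASS6 (FDR 0.057), STIL (0.014), CEP63 (0.18), CEP78 (0.074) and PCM1 (0.025), and 24 of 28 in ‘damaged’, without SASS6, CEP63, CEP78 and PCM1. The genes called with the fold limit numbered 9 lower in MII, with NUMA1 added, against 31.5% of all genes. In ‘damaged’ 9 were lower, with CEP250 added, against 29.4%, and 0 were higher in both. CEP250 reached 10 counts in 0 MII and 0 ‘damaged’ libraries, so it passed the count filter there only through GV. Its call, like those of HAUS7 and CEP131, is a description. A changed transcript share, described next, was then found for 12 and 11 genes, where 29.9% and 30.0% of all genes tested had one. How many of the genes described here were tested for it, or passed the filter of 1 TPM only through GV, is not given for these libraries. The counts of 12 and 11 are therefore a description and are not read against those shares. For ‘damaged’ against MII 0 of 40 passed the FDR in limma, and 0 had an unadjusted p under 0.05.

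The way each gene's reads were shared among its transcripts also changed between stages, and this measure does not depend on the scaling between libraries. With several transcripts above 5% of the gene, 26 of the genes had 78 transcripts tested by limma's diffSplice. A share that differed by over 0.1 with an FDR under 0.01 was found for 15 of the 26 in MII against GV, where 42.4% of all 5456 genes tested had one, for 16 in ‘damaged’ against GV, against 42.6%, and for 0 in ‘damaged’ against MII, against 0.0183%, with 4 transcripts at an unadjusted p under 0.05. CEP131 and TUBGCP2, in both lists, and TUBGCP3, in the 16 only, averaged under 1 TPM in MII and in ‘damaged’ libraries. They passed the filter of 1 TPM per gene only through GV, so their calls are a description and are not read against those shares.

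NEDD1 moved from a longer to a shorter transcript. The transcript of 2315 bases (ENSSSCT00000039030.3) held 39.9 ± 13.5% of the gene's TPM in GV, between 26.6 and 55.2%, 76.4 ± 3.02% in MII, between 73.4 and 81.4%, and 75.5 ± 3.70% in ‘damaged’ libraries, and the transcript of 3856 bases took the rest. The FDR for MII against GV was 7.98e-07, and the groups did not overlap. PRC1 moved likewise, its transcript of 3044 bases (ENSSSCT00000055588.3) going from 19.9 ± 13.8% in GV to 60.3 ± 2.88% in MII and 56.8 ± 5.75% in ‘damaged’ libraries (FDR 1.25e-06).

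CEP164 had 44.7 ± 32.4% in GV and 94.5 ± 5.88% in MII for its transcript of 5500 bases (FDR 7.37e-05), with GV libraries that differed widely among themselves. For CEP131 and TUBGCP2, which also passed, the MII libraries held as few as 3 and 13 estimated counts of the gene, so their values rest on few reads. The CEP131 transcript of 3100 bases went from 0.41 ± 0.83% to 60.0 ± 54.8%, and the TUBGCP2 transcript of 3025 bases from 47.8 ± 22.3% to 0% in each MII library. The other genes that passed in MII were STIL, HAUS4, HAUS6, CEP63, CEP78, CEP85, CEP290, CEP350, PCM1 and CKAP5.

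**Figure D5:**
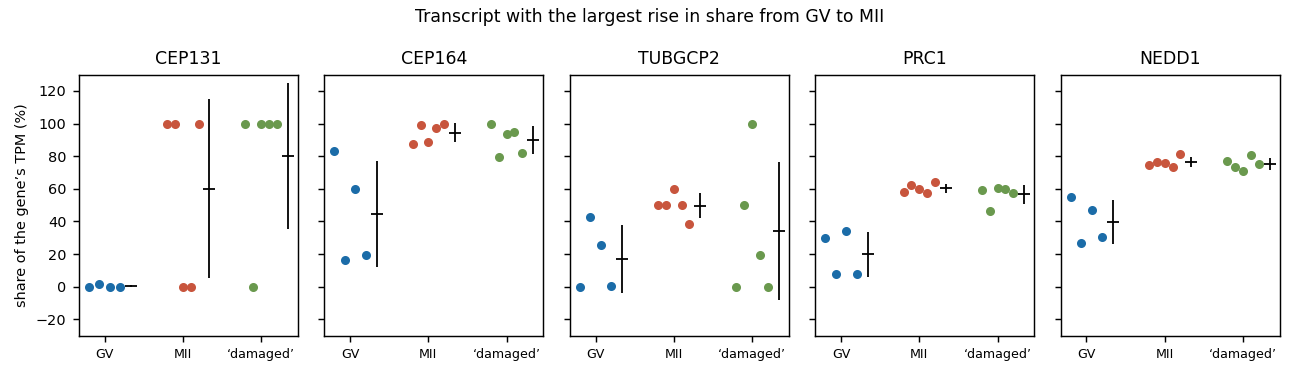
Share of the gene's TPM, in percent, taken by the transcript that gained most from GV to MII in the 5 genes with the largest differences, as a point per library with mean and SD. NEDD1 and PRC1 separate GV from matured libraries with a narrow spread in MII, and CEP164 spreads widely in GV. CEP131 scatters widely in MII and ‘damaged’ libraries on few counts. The TUBGCP2 transcript shown (ENSSSCT00000101890.1, 2896 bases) ran from 38.3 to 59.9% in MII and from 0 to 100% in ‘damaged’ libraries, also on few counts.

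Of 63 other centrosome and spindle pole genes tested, 0 were called higher and 8 lower in MII on library sizes, against 0.363% and 29.3% of all genes. With TMM factors 9 were called higher and 5 lower, against 4.51% and 17.0%. On library sizes 49 of the 63 lay above the median gene. The 2 highest were SPICE1, a centriole and spindle protein, with a log2 fold change of 1.87 (25.5 to 85.1 TPM), and DLGAP5, which stabilises kinetochore fibres, with 1.62 (428 to 1181 TPM). The 2 lowest were CROCC, the rootlet protein, with -3.77 (2.0 to 0.14 TPM), and CAMSAP2, which caps free minus ends, with -3.28 (0.61 to 0.05 TPM). Both folds rest on levels near 0 in MII. WDR62, TACC2 and CAMSAP1, also among the 8 called lower, were at 0.105, 0.148 and 0.173 TPM in MII. The calls of these low genes are therefore a description and are not read against the share of all genes.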

How the data were processed

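RNAseq libraries of 15 pig oocyte samples (5 GV, 5 MII, 5 ‘damaged’) were used, grouped by their labels. Adapters were removed with AfterQC and transcripts of the Sscrofa11.1 cDNA were quantified with Kallisto 0.43 by the authors, who deposited estimated counts and TPM per transcript. The deposited gene-level estimated counts were summarised by the authors with tximport (lengthScaledTPM). Of their 15 columns, 7 had the total of another library and were not used. Transcripts of a gene were found as runs of neighbouring transcripts whose sums matched the 8 other columns, which gave 16899 genes and 99.96 to 99.997% of each library's counts, and gene counts of all libraries were recomputed. Counts per gene were tested with limma 3.58.1 (voom) (R 4.3.3), with low counts removed by filterByExpr (edgeR 4.0.16), once on library sizes and once with TMM factors. GV replicate 3 was left out. Transcript shares were tested with diffSplice for genes above 1 TPM. The transcript matching, the limma fit and the diffSplice test were each run on simulated data. Depth was 6.40 to 23.6 M counts.

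The members and the gene lists were chosen with earlier results of these data known. Genes described by library were, for each complex, the highest, the lowest and the most abundant, the 3 with the smallest p between ‘damaged’ and MII, and 8 core centrosome and spindle genes, 2 of which had no identifier. Symbols came from a table of Ensembl names and positions, where given, from RefSeq by symbol. Alternatives were other scalings and filters, edgeR's quasi-likelihood test, DESeq2 1.42.0, all GV libraries, each library left out, the replicate number as a block and Kallisto counts summed per gene. Same-numbered libraries correlated by -0.10 to 0.32 in their deviations from the group means, and no source ties a number to 1 of the 5 independent collections, so the numbers were not taken to pair them. Human libraries were not analysed here.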

Additional observations from a re-analysis of the deposited data

Results flagged for a closer look

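Within groups of 4 or 5 libraries, a library counted as outlying where its gap to the nearest library passed Dixon's 95% value, which chance gives in about 1 in 20 groups, and 5 of 123 groups had one. TUBG1 was at 26.9 CPM in MII replicate 5, beside 14.1 to 17.6 CPM in the other MII libraries. HAUS6, an augmin subunit, was at 21.1 CPM in MII replicate 3, beside 13.9 to 15.0 CPM. HAUS7 was at 21.9 CPM in GV replicate 5, beside 17.9 to 18.5 CPM. CENPJ was at 103 CPM in ‘damaged’ replicate 5, beside 63.7 to 72.7 CPM. PRC1 was at 1877 CPM in ‘damaged’ replicate 3, beside 1215 to 1383 CPM.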

How the results depend on the processing

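Scaling decided the counts of DEGs. For MII against GV, 0 genes were called higher on library sizes, 6 with TMM factors, 7 with RLE size factors and 7 with DESeq2, and 8, 2, 2 and 2 were called lower. For ‘damaged’ against GV the counts were 0, 4, 5 and 5 higher and 8, 2, 2 and 2 lower. With FDR alone and no minimum fold change, 13 were higher and 15 lower in both comparisons. A filter of 10 CPM in 4 libraries left 5 lower in both, because TUBGCP2, TUBGCP3 and TUBGCP6 were no longer tested. Chosen after seeing the data, edgeR's test with TMM factors gave 6 higher and 2 lower in MII and 4 and 2 in ‘damaged’, all 5 GV libraries with TMM factors gave 6 and 3, and 6 and 2, and TMM factors with the replicate block gave 6 and 2, and 5 and 2. The replicate block on library sizes gave 0 higher in both comparisons and 10 lower in MII and 8 in ‘damaged’, and 15, 17 and 0 genes with a changed transcript share, and not every library correlated best with its own number. Leaving out each library in turn gave 8 to 11 lower in MII and 7 to 9 in ‘damaged’ on library sizes, 0 to 0 higher, and 12 to 16 and 14 to 18 genes with a changed transcript share. HAUS2, CLASP1 and NUMA1, near the fold limit, were gained without MII replicate 3, and HAUS5 was lost in ‘damaged’ without GV replicate 2, GV replicate 5 or ‘damaged’ replicate 4. Shares of all genes were counted for the main fit under either scaling and for the agreeing labels, as given in the Results. No such share was counted for RLE, DESeq2, edgeR or the CPM filter. The same holds for all 5 GV libraries, the replicate block and left-out libraries. Counts under those settings, transcript shares included, are a description and are not read against all genes.

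With TMM factors the direction in MII against GV turned for 6 of the 40 genes, HAUS6, CEP63, CEP350, CENPJ, CEP164 and CEP192, of which the last 3 are among those described by library, and in ‘damaged’ for 7, these and CLASP2. CENPJ went to 0.27 with TMM, 0.33 with RLE and 0.32 with DESeq2, CEP164 to 0.53, 0.58 and 0.61, and CEP192 to 0.89, 0.95 and 0.97. CEP192, at -0.03 on library sizes, also went to 0.0663 with all 5 GV libraries, 0.0128 with the replicate block and 0.0015 with Kallisto counts summed per gene, and lay between -0.0959 and 0.0734 with each library left out, above 0 without GV replicate 5 or MII replicate 5. The cause was not tested.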
